A study of Mus musculus with 4 samples.

Results

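The genes described here join, split and clear mitochondria. They are 10 genes of mitochondrial fusion, fission and mitophagy, the removal of mitochondria by autophagy, and were taken from the table by symbol out of 51912 genes. All 10 were found, and all 10 had enough reads to be among the 15643 genes tested. RNA was sequenced from subcutaneous white adipose tissue, the fat under the skin, of C57BL/6 mice aged 8 weeks. One group received the vehicle DMSO, and the other received BML-260, a small molecule that inhibits the phosphatase DUSP22. Each group has 2 libraries, A and B. The design text counts 8 mice, 4 for each treatment, but the sources used here do not say which mice went into which library. The p-values therefore cover only the spread between these libraries, which may be technical. Dose, route and duration of treatment are not given in the sources used here.

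Mitochondria in a cell form a network that is joined by fusion and cut by fission. The mitofusins MFN1 and MFN2 fuse the outer membranes, OPA1 fuses the inner membranes and shapes the cristae, and the protease OMA1 cuts OPA1 under stress. The dynamin DRP1, encoded by Dnm1l, constricts the mitochondrion and is recruited by adaptors on the outer membrane such as MFF, while FIS1 is a further outer membrane protein of fission. Damaged mitochondria are marked by the kinase PINK1, which phosphorylates ubiquitin on them, or are bound to the autophagy machinery directly by the receptors BNIP3 and FUNDC1. In thermogenic fat, noradrenaline is known to trigger DRP1-dependent fission, MFN2 ties mitochondria to lipid droplets, and loss of the thermogenic state is known to involve mitophagy.

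With BML-260, the mean level of 7 of the 10 genes was above that with vehicle and that of 3 was below, and none of these differences passed the test. The differences were small: with all 4 libraries, the largest were Bnip3, at 0.719 times its vehicle level, and Mfn1, at 1.24 times. In the same libraries Ucp1, the proton carrier of thermogenic fat, lay at 7.88 and 9.68 CPM (read counts scaled to a common library size) with vehicle, and the BML-260 libraries held 251 and 263. By the edgeR quasi-likelihood test, with p adjusted over all tested genes after Benjamini and Hochberg, 0 of the 10 passed an adjusted p of 0.05, where 0.00639% of all tested genes did (1 gene, Ucp1). At an unadjusted p under 0.05 the count was also 0 of 10, against 11.1% of all tested genes. DESeq2 called 0 of the 10 as well, against 2.5% of the genes to which it gave an adjusted p, though Bnip3 had an unadjusted p of 0.0245 there, as in the authors' deposited table. Both BML-260 libraries lay above both vehicle libraries for 1 member, Mfn1, where 22.9% of all tested genes did so. Both lay below for 2 members, Fis1 and Bnip3, where 21.5% of all tested genes did so. These shares are close to the background, with so few members. The median log2 fold change over the 10 was 0.09, beside 0.02 over all tested genes. The authors' deposited table gives adjusted p-values from 0.3644 for Bnip3 to 0.9998 for the 10 genes, with 0 of 10 under 0.05.

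The stretches before the start sites are shown for the 3 genes whose groups did not overlap in CPM, Mfn1 upwards and Bnip3 and Fis1 downwards. As given above, such a number is close to the background, so the choice only limits what is printed. The stretches are the 250 bases before the start, read 5′ to 3′ on the gene's strand, from RefSeq on GRCm38.p6. Capitals mark the core of the site bound by the hypoxia factor HIF-1, ACGTG, and the first part of the cyclic AMP response element, TGACG, on either strand. The Bnip3 stretch lies at chr7:138909507-138909756 on the minus strand, that of Mfn1 at chr3:32529232-32529481 on the plus strand, and that of Fis1 at chr5:136953025-136953274 on the plus strand.
Bnip3: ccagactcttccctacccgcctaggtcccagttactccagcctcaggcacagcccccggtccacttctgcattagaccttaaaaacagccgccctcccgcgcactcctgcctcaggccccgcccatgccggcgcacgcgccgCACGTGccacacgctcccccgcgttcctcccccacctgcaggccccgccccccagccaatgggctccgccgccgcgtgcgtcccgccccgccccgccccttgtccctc
Mfn1: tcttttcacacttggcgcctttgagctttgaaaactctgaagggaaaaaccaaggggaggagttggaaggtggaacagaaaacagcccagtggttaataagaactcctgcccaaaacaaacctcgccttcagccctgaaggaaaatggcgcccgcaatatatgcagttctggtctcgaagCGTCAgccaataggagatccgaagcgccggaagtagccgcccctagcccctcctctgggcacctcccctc
Fis1: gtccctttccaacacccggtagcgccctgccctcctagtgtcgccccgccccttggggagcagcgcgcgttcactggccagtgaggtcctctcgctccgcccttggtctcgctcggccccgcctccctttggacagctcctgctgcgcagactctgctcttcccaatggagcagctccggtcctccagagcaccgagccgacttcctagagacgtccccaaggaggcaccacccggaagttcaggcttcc
Bnip3 is a known HIF-1 target, and its stretch holds 2 overlapping HIF core matches on opposite strands, together the palindrome CACGTG, starting at -108 and -107 from the start site. The search covered 300 bases, 250 before and 50 after the start, and the HIF core was found in 19.6% of all 32817 such windows. Of the 10 members, 2 held it in at least 1 of their windows, Bnip3 and Mfn2. That is a count of genes, while the share is one of windows. Mfn2 has 3 overlapping windows, and its matches at -2 and -39 are the same letters. The stretch of Mfn1 holds 1 match to TGACG on the opposite strand at -70, letters that 20.8% of windows hold. The Fis1 window of the stretch shown holds neither. The full cyclic AMP element, TGACGTCA (1.79% of windows), and the core of the element of the estrogen-related receptors, AAGGTCA (4.72%), were found in no member's window. The 10 members have 15 windows in the table. A match is a description of letters and not of binding.

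Levels of different genes were compared as FPKM, the authors' values per kilobase of transcript, scaled to the number of fragments. Bnip3 was highest in every library, at 388 and 318 for vehicle and 243 and 306 for BML-260. Fis1 and Pink1 followed, with ranges over the 4 libraries of 114 to 145 and 101 to 120, and their ranges overlapped. Mfn2 (71.2 to 93.4) and Mff (67.5 to 78.4) came next and overlapped as well. A gap separated these 5 genes from Opa1 (18.8 to 28.3), Mfn1 (15.3 to 22.3) and Dnm1l (16.2 to 19.3), which overlapped one another. The highest value of Fundc1 (13.5 to 16.1) lay above the lowest of Mfn1 and below all of Dnm1l and Opa1. Oma1 was lowest in every library, at 6.79 to 8.97. Among all tested genes, the mean FPKM of Bnip3 stood at the 97.9th percentile and that of Oma1 at the 51.1st. Between the mitophagy receptors, Bnip3 exceeded Fundc1 per length 26.1 and 23.0 times with vehicle and 15.1 and 22.6 times with BML-260.

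**Figure D1:**
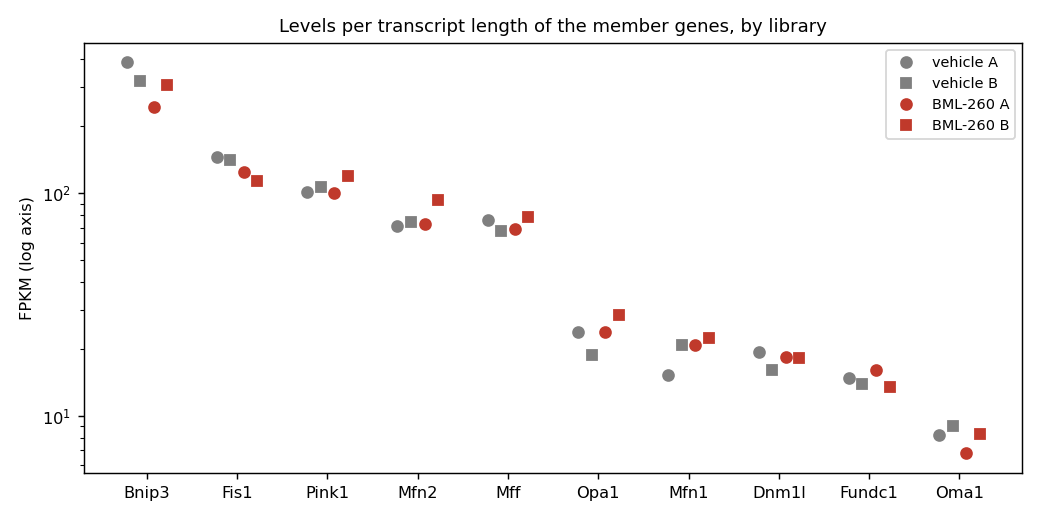
FPKM of each of the 10 genes in each library on a log axis, with genes ordered by their mean over the 4 libraries, vehicle in grey and BML-260 in red, library A as circles and B as squares. Bnip3 lies highest in all 4 libraries and Oma1 lowest in all 4, and within a gene the libraries lie close together compared with the distance between the highest and lowest genes.

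Among the fusion genes, Mfn1 (ENSMUSG00000027668, chromosome 3, 32529465 to 32579239, plus strand) lay at 41.1 CPM in vehicle A, with 43.9 in B, and the treated libraries A and B held 49.5 and 56.3. Both BML-260 libraries were above both vehicle libraries. The vehicle mean was 42.5 ± 2.02 and the BML-260 mean 52.9 ± 4.81 (SD, n = 2 each), which is 0.32 on the log2 scale (SE 0.13, edgeR adjusted p = 0.4557). The fold was 1.24, with a 95% confidence interval of 0.997 to 1.55. On the FPKM scale the groups of Mfn1 did overlap, with 15.3 and 20.9 for vehicle against 20.8 and 22.3 for BML-260. The transcript length that links its counts to its FPKM, which reflects the mixture of isoforms the estimate assigned, was 2743 bases in vehicle A and 2093 in vehicle B, and 2386 and 2466 in the BML-260 libraries. The longest was thus 1.31 times the shortest, more than for 88.5% of the 11989 genes with at least 50 counts in every library. For Pink1 and Dnm1l the same ratio was 1.005 and 1.004.

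Mfn2 (ENSMUSG00000029020, chromosome 4, 147873599 to 147904704, minus strand) lay at 263 and 286 CPM in vehicle libraries and 284 and 366 in treated ones. Only BML-260 B stood above the vehicle libraries, while BML-260 A lay between them. The log2 fold change was 0.24 (SE 0.18, edgeR adjusted p = 0.6599), and the interval of the fold ran from 0.855 to 1.64. Mfn2 was higher than Mfn1 per length in every library, 4.66 and 3.58 times with vehicle and 3.52 and 4.19 times with BML-260. Opa1 (ENSMUSG00000038084, chromosome 16, 29579334 to 29654884, plus strand) lay at 107 and 90.0 CPM in vehicle libraries and 102 and 120 in treated ones. BML-260 A again lay between the vehicle libraries. Its log2 fold change was 0.18 (SE 0.15, edgeR adjusted p = 0.6958; interval of the fold 0.866 to 1.48).

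Oma1 (ENSMUSG00000035069, chromosome 4, 103313812 to 103371868, plus strand), the protease that cuts OPA1, lay at 12.5 and 13.2 CPM in vehicle libraries and 10.7 and 13.6 in treated ones. The BML-260 libraries lay on either side of the vehicle libraries. Its log2 fold change was -0.08 (SE 0.19, edgeR adjusted p = 0.8940). It had the fewest reads of the 10, from 223 to 306 expected counts a library, and its interval ran from 0.678 to 1.32 times the vehicle level.

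**Figure D2:**
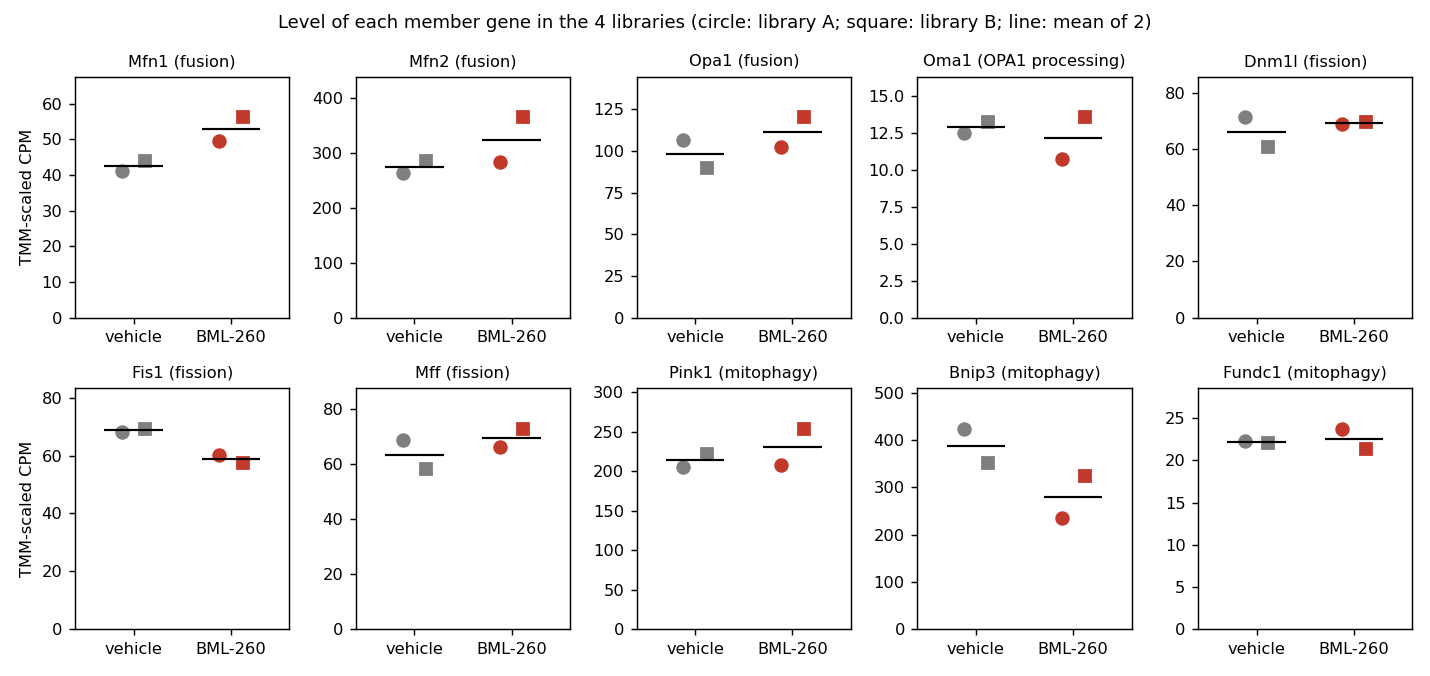
Scaled CPM of each of the 10 genes, each panel with its own axis from 0, with vehicle in grey and BML-260 in red, library A as circles, library B as squares and the mean of 2 as a line. Both BML-260 libraries lie above both vehicle libraries for Mfn1 and below them for Fis1 and Bnip3, and the groups overlap in the other 7 panels.

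Among the fission genes, Dnm1l (ENSMUSG00000022789, chromosome 16, 16312230 to 16358959, minus strand), which encodes the constricting enzyme itself, lay at 71.2 and 60.8 CPM in vehicle libraries and 68.8 and 69.7 in treated ones. The BML-260 libraries both lay within the span of the vehicle pair. The log2 fold change was 0.07 (SE 0.13, edgeR adjusted p = 0.8738), and the interval of the fold was 0.840 to 1.31. Mff (ENSMUSG00000026150, chromosome 1, 82724890 to 82752394, plus strand), its adaptor, lay at 68.6 and 58.3 CPM in vehicle libraries and 66.1 and 72.9 in treated ones. Its groups overlapped too, with a log2 change of 0.13 (SE 0.14, edgeR adjusted p = 0.7474; interval of the fold 0.864 to 1.39).

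Fis1 (ENSMUSG00000019054, chromosome 5, 136953275 to 136966234, plus strand) went the other way. It lay at 68.3 and 69.3 CPM in vehicle libraries and 60.1 and 57.4 in treated ones, and both BML-260 libraries were below both vehicle libraries. The libraries of each group were close to each other, with means of 68.8 ± 0.725 and 58.7 ± 1.91 (SD, n = 2 each). The log2 fold change was -0.23 (SE 0.11, edgeR adjusted p = 0.4997), or 0.854 times the vehicle level with an interval of 0.707 to 1.03. The groups of Fis1 also stayed apart as FPKM, at 145 and 141 for vehicle and 125 and 114 for BML-260. Per length, Mff over Fis1 was 0.524 and 0.479 for vehicle and 0.555 and 0.688 for BML-260. Mfn2 over Fis1 was 0.490 and 0.530 for vehicle and 0.586 and 0.820 for BML-260. Both ratios share Fis1, whose own groups lay apart, and no share over all pairs of genes was worked out beside them. For such ratios, an exact permutation test of 2 libraries against 2 cannot give a p below 0.333.

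Among the mitophagy genes, Bnip3 (ENSMUSG00000078566, chromosome 7, 138890836 to 138909519, minus strand) had the largest difference of the 10 in the fit of all 4 libraries. Vehicle A held 425 CPM and vehicle B 352, while the treated library A held 235 and B 324. Both BML-260 libraries were below both vehicle libraries, but BML-260 B was nearer to vehicle B than to BML-260 A. The means were 388 ± 51.9 and 279 ± 63.0 CPM (SD, n = 2 each). The log2 fold change was -0.47 (SE 0.22, edgeR adjusted p = 0.4969), and the interval of the fold ran from 0.488 to 1.06. DESeq2 gave it an adjusted p of 0.3341, the smallest of the 10 in that tool. Without BML-260 A its log2 fold change was -0.28, smaller in size than those of Mfn2 (0.40) and Mfn1 (0.39) in the same fit. Summed markers of white adipocytes, 7 genes of which Adipoq is an example, moved along with it, at 18650 CPM (A) and 17740 (B) with vehicle, and 12700 (A) and 17300 (B) with BML-260. None of the 7 was at 0 in any library. B cell markers were high in the same library, at 142 CPM summed over 5 genes in BML-260 A and 1.57 to 2.60 in the other 3 libraries. In bulk tissue, fewer cells of a type and less RNA per cell cannot be told apart, and the part of these markers in the level of Bnip3 was not tested. The transcript length behind its FPKM was 1118 and 1100 bases with vehicle and 967 and 1035 with BML-260.

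Pink1 (ENSMUSG00000028756, chromosome 4, 138313409 to 138326307, minus strand), the kinase that marks damaged mitochondria, lay at 206 and 222 CPM in vehicle libraries and 208 and 254 in treated ones. BML-260 A lay between the vehicle libraries. The log2 fold change was 0.11 (SE 0.16, edgeR adjusted p = 0.8321; interval of the fold 0.814 to 1.43). Fundc1 (ENSMUSG00000025040, chromosome X, 17556564 to 17572325, minus strand), the receptor for mitophagy under low oxygen, was the most even of the 10, at 22.3 and 22.1 CPM in vehicle libraries and 23.8 and 21.4 in treated ones. Its log2 fold change was 0.03 (SE 0.13, edgeR adjusted p = 0.9579), and the interval allowed 0.810 to 1.28 times the vehicle level. Per length, Bnip3 over Pink1 was 3.81 and 2.97 for vehicle and 2.42 and 2.55 for BML-260. The FPKM of Bnip3 alone already lay lower in both BML-260 libraries, and no share over all pairs of genes was worked out.

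The BML-260 libraries differed from each other in the direction of several genes. Against the vehicle mean, BML-260 B was higher for Mfn2 by 0.41, for Pink1 by 0.25 and for Opa1 by 0.29 on the log2 scale. In BML-260 A the same genes stood at 0.05, -0.04 and 0.06. Oma1 stood at -0.26 (A) and 0.08 (B), and Fundc1 at 0.10 and -0.05. BML-260 B is also the library with the most skeletal muscle RNA. The 16 muscle markers took 0.0447% (A) and 1.19% (B) of all counts with vehicle, and 3.43% (A) and 4.70% (B) with BML-260, and none was at 0 in any library. The levels of Mfn1 followed this order of libraries, as did those of 12 of the 110 pathway genes described further on and of 7.04% of all tested genes. With the mean log2 level of these markers as a term of the fit, which leaves 1 residual degree of freedom, the log2 fold change was 0.20 for Mfn1, 0.09 for Mfn2, -0.02 for Pink1, -0.24 for Fis1 and -0.27 for Bnip3. Those of Opa1, Mff and Dnm1l were 0.38, 0.33 and 0.28. By size alone, Opa1, Mff and Dnm1l ranked above Bnip3 there, Dnm1l only barely (0.2776 against -0.274). Their unadjusted edgeR p-values were 0.243, 0.2422 and 0.2883 in that order, that of Bnip3 was 0.5399, and the adjusted p was 0.9997 for each. The muscle term was itself higher in both BML-260 libraries (1.626 and 2.177) than in the vehicle libraries (-3.958 and 0.1563). Even Ucp1 had an edgeR adjusted p of 0.5267 in that fit, so it cannot settle which member differed most.

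**Figure D3:**
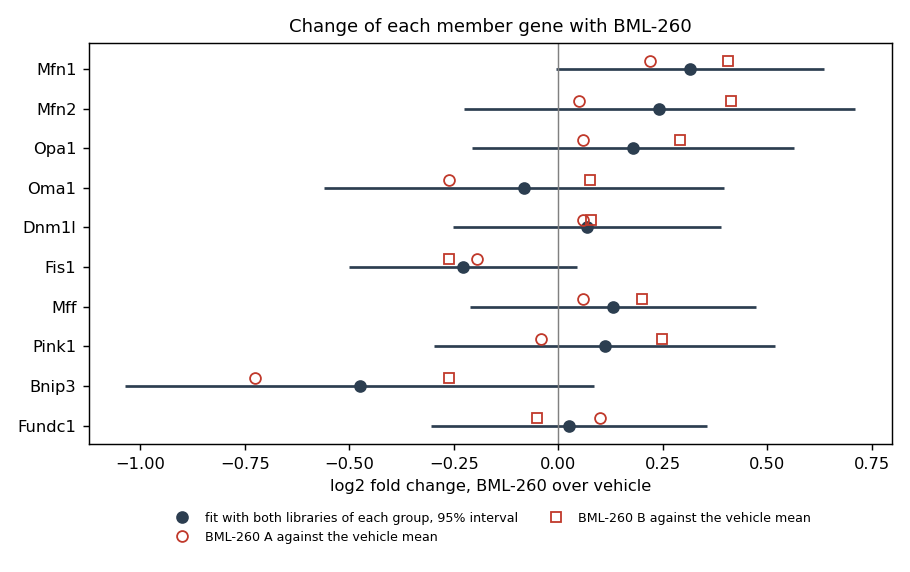
Log2 fold change of each gene, BML-260 over vehicle, from the fit with all 4 libraries (filled points with 95% confidence intervals), and each BML-260 library against the vehicle mean (open circles for A, open squares for B). Every interval includes 0, that of Mfn1 by the least, and the open symbols lie on opposite sides of 0 for Oma1, Pink1 and Fundc1.

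The genes that act around the 10 were taken as 8 lists with 110 genes, all of which were tested. None of the 110 passed the edgeR test. DESeq2 called 2, Gdap1 and Pgk1, both higher, where it called 2.5% of the genes to which it gave an adjusted p. Among all tested genes its calls were 305 higher and 77 lower. At an unadjusted edgeR p under 0.05, 9 lay higher and 1 lay lower, together 9.09%. Of all tested genes 11.1% did so, 1165 higher and 564 lower. The list of OPA1 processing, cristae and fusion partners had 13 genes, of which 0 reached that level in either direction, and a median log2 fold change of 0.03. Its 3 smallest p-values belonged to Apoo, a cristae junction subunit whose levels followed the order of the muscle markers over the libraries, at 0.35 (SE 0.15), Chchd6, another subunit of that complex, at -0.33 (SE 0.17), and the prohibitin gene Phb2 at -0.17 (SE 0.12).

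The list of DRP1 adaptors and fission partners had 14 genes with a median of 0.07, and 1 of them was higher at an unadjusted p under 0.05. That gene was Gdap1, an outer membrane protein whose excess fragments mitochondria, with 3 and 22 expected counts with vehicle and 86 and 131 with BML-260. In CPM these were 0.142 and 0.951, then 4.14 and 5.97. Its log2 fold change was 3.18 (SE 0.76, edgeR adjusted p = 0.3287), and DESeq2 called it higher with an adjusted p of 0.005057. Its levels followed the order of the libraries in the muscle markers, whose part in them was not tested. Mief2, a further DRP1 receptor, lay at 0.41 (SE 0.17), and Inf2, a formin that primes constriction, at -0.30 (SE 0.16).

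Around PINK1, 14 genes had a median of -0.03, of which 1 was higher, and 0 were lower, with an unadjusted p under 0.05. Usp15, a deubiquitinase that opposes this mitophagy, was that gene, at 58.7 and 57.7 CPM in vehicle libraries and 69.4 and 83.1 in treated ones (log2 fold change 0.39, SE 0.13, edgeR adjusted p = 0.4179). Usp30, the mitochondrial deubiquitinase of the same step, lay at -0.24 (SE 0.16) and Tomm7, which helps hold PINK1 at the import pore, at -0.21 (SE 0.18). The other mitophagy receptors and their regulators, 9 genes with a median of 0.10, had 0 at an unadjusted p under 0.05 in either direction. Fundc2 lay at 0.28 (SE 0.11), Pgam5, the phosphatase that acts on FUNDC1, at -0.28 (SE 0.12) and Bnip3l, the closest relative of Bnip3, at -0.22 (SE 0.16). Bnip3l stood at 148 and 132 CPM in vehicle libraries and 107 and 133 in treated ones, lowest in the same library as Bnip3 but with overlapping groups.

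Core autophagy machinery had 27 genes with a median of -0.03, of which 2 were higher, and 0 lower, by the unadjusted p of 0.05. These were the kinase gene Ulk2, at 67.4 and 67.7 CPM in vehicle libraries and 80.9 and 91.2 in treated ones, and Tfeb, the regulator of lysosomal genes, at 18.9 and 22.8 against 25.8 and 30.2. Gabarapl1, an LC3 relative that receptors bind, lay lower at 125 and 129 against 91.9 and 111. Their log2 fold changes were 0.35 (SE 0.12), 0.42 (SE 0.16) and -0.33 (SE 0.14), with edgeR adjusted p-values between 0.4179 and 0.4738. The levels of Ulk2 and Tfeb followed the order of the libraries in the muscle markers, whose part in them was not tested.

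Mitochondrial transport, with 6 genes, had a median of 0.17, with 6 of 6 above 0, where 52.5% of all tested genes were. At an unadjusted p under 0.05, 2 were higher, or 33.3% of this short list, beside 11.1% of all tested genes in either direction. The median was 0.37 with the muscle term in the fit, which left 1 residual degree of freedom and settles nothing here. Trak2, the adaptor that links mitochondria to motors, lay at 50.3 and 49.2 CPM in vehicle libraries and 70.0 and 73.6 in treated ones. The libraries within each group of Trak2 were close, and the log2 fold change was 0.53 (SE 0.11, edgeR adjusted p = 0.3014). The kinesin genes Kif1b and Kif5b lay at 0.48 (SE 0.17) and 0.18 (SE 0.16). Genes that track mitochondrial content, 12 in number, had a median of -0.04, with 2 higher and 0 lower at that level. The channel genes Vdac3 and Vdac1 were these 2, at 0.44 (SE 0.13) and 0.55 (SE 0.20), and the levels of Vdac1 (180 and 217 CPM with vehicle, 252 and 327 with BML-260) followed the order of the muscle markers, while the import genes Tomm40 and Tomm20 lay at -0.21 (SE 0.13) and -0.20 (SE 0.13). Tomm20 was added to the named genes after its values were seen.

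Known targets of HIF-1, which also drives Bnip3, lay on both sides of 0. The list had 15 genes, 9 above and 6 below, and a median of 0.11, with 1 gene on each side past the unadjusted p of 0.05. Pgk1, an enzyme of glycolysis, lay at 182 and 226 CPM in vehicle libraries and 306 and 463 in treated ones, and DESeq2 called it higher (log2 fold change 0.91, SE 0.25, edgeR adjusted p = 0.3604, DESeq2 adjusted p = 0.01571). Its levels, too, followed the order of the muscle markers over the libraries. Ndrg1, which responds to low oxygen, lay lower, at 130 and 106 CPM in vehicle libraries and 62.3 and 85.1 in treated ones (-0.67, SE 0.20, edgeR adjusted p = 0.3774). The order of its 4 libraries was the same as that of Bnip3, with BML-260 A lowest. Summed white adipocyte and endothelial markers had that order too, though not every marker in the sums did. The share of all tested genes with that order was not counted, and a link to HIF-1 was not tested. Ankrd37 lay at 0.96 (SE 0.45) from 10 to 21 counts a library.

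**Figure D4:**
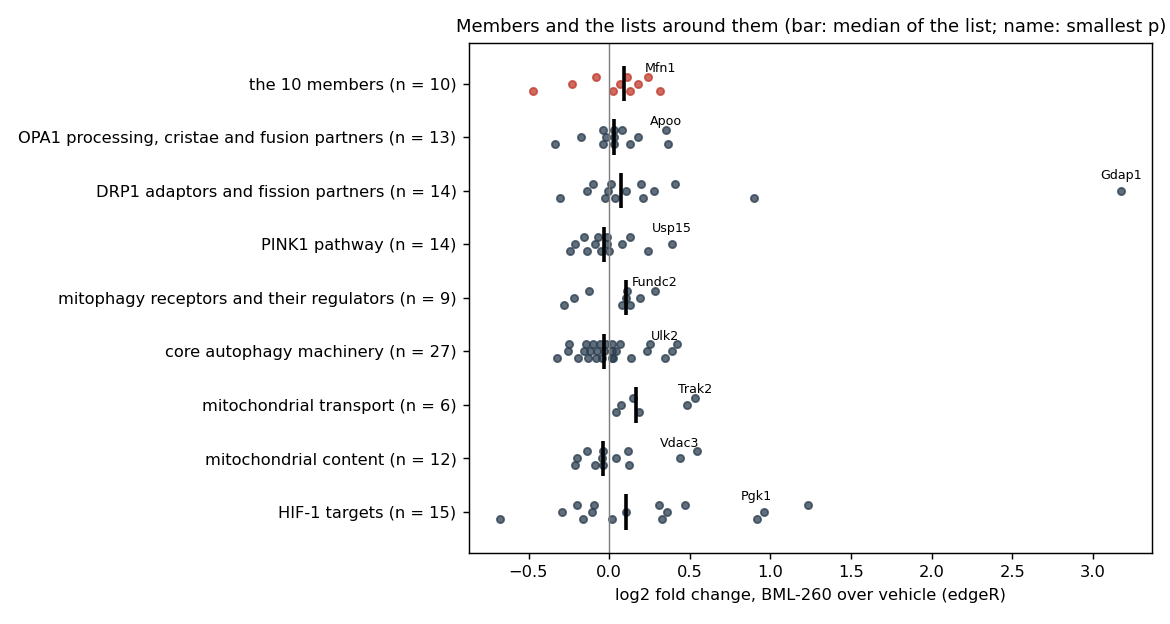
Log2 fold change, BML-260 over vehicle, of the 10 genes (red) and of the genes of each of 8 lists around them (blue), with a bar at each list's median and the gene with the smallest p named. The medians lie between -0.04 and 0.17, and Gdap1 stands far to the right at 3.18.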

How the data were processed

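The authors deposited estimated counts per gene, not normalized and in part not whole. The authors also deposited FPKM per library, group means on a log2 scale, and their own log2 fold change, p-value and adjusted p-value per gene, per the file headers. RSEM 1.2.31, HISAT2 2.1.0, the build GRCm38.p5 and DESeq2 1.10.1 are listed, without roles, per the submitters' processing notes. The 2 columns of group log2 counts were not used. For want of a stated strand setting, a gene and an overlapping partner cannot be told apart. Of the 10 members, 5 overlap no other annotated gene. The overlapping genes had mean counts of at most 18.8 where they were in the table.

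Counts were rounded. Library totals were 19999836 to 23726781 counts. Genes were matched by symbol, and 3 listed genes by identifier through GENCODE vM21, which gave coordinates. After filterByExpr, 15643 genes were tested with edgeR 4.0.16 (R 4.3.3, quasi-likelihood, TMM factors, two-sided, Benjamini-Hochberg), with 2 residual and 3.28 prior degrees of freedom. Each SE was derived as the size of the log2 change over the root of its F statistic. Alternatives were DESeq2 1.42.0, limma-voom (limma 3.58.1), other scaling, no filter, each library left out, the library letter or a muscle score as a term. Tests were tried on simulated counts. Libraries of 1 group differed beyond counting noise (chi-square per degree of freedom 40.4 and 45.6), so each counted once. Transcript length behind FPKM is count over FPKM, scaled to an equal median gene in every library. Members and lists were chosen with earlier results of these data known. Named genes were the members, the 3 smallest p of each list, Ucp1 and Ckm, with the 7 white adipocyte markers named besides. A gene counted in the lists is not reported here by itself. Ckm, a muscle marker, lay at 42.6 and 1476 CPM (vehicle A, B) and 4019 and 6304 (BML-260 A, B).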

Additional observations from a re-analysis of the deposited data

How the results depend on the processing

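No member passed an adjusted p of 0.05 under any of the 11 alternatives, so the counts of 0 higher and 0 lower held in each, and the smallest adjusted p of a member was 0.1787, for a fit without BML-260 B. The median over the 10 lay between 0.018 without vehicle B and 0.125 without BML-260 A. Mfn1, Mfn2, Opa1, Mff, Fis1 and Bnip3 kept their direction in every alternative, with Bnip3 from -0.73 without BML-260 B to -0.27 with the muscle term. The other 4, with main values of at most 0.11 on either side of 0, changed sign in some. With a library left out, Oma1 ranged from -0.266 to 0.0619 (above 0 without BML-260 A), Dnm1l from -0.0437 (without vehicle B) to 0.159, Pink1 from -0.0448 (without BML-260 B) to 0.234, and Fundc1 from -0.0658 (without BML-260 A) to 0.0958. Fundc1 was also -0.0228 under library totals, and Pink1 -0.0222 under the muscle term. Among the alternatives that kept every library, 1 member, Bnip3, had an unadjusted p under 0.05 by DESeq2, with library totals and without a filter. Over all genes the same level was reached by 1704 of 24481 with DESeq2, 1819 of 15643 with library totals and 2645 of 24481 without a filter. So 1 of 10 members is read beside those shares and not as a result about Bnip3. Bnip3 had the largest change except without BML-260 A and with the muscle term, under which Dnm1l was 0.2776. Without BML-260 B, Mfn2 was 0.04, and all 8 list medians were lower: OPA1 partners -0.0836, DRP1 partners -0.0376 and mitophagy receptors -0.0137 changed side, PINK1 was -0.0909, core autophagy -0.112, mitochondrial content -0.159, HIF-1 targets 0.0469 and transport 0.104. Without BML-260 A, core autophagy (0.0178) and mitochondrial content (0.0558) lay above 0, as did PINK1 with the muscle term (0.00535), and OPA1 partners were -0.0279 with library totals. With the library letter as a replicate block, the median over the members was 0.089, and 0 genes were called in all, Ucp1 included (edgeR adjusted p = 0.1294). Deviations of same-lettered libraries had a correlation of -0.04 over genes, so the letters were not taken to pair the libraries. The intervals given rest on 2 libraries a group and, like the p-values, cover only the spread between these libraries.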
